A study of Mus musculus with 12 samples.

Results

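Genes of the cell cycle and of DNA replication were followed in mouse liver as a list of 40 genes. The list holds 14 genes of DNA replication, 9 G1 cyclins, kinases and their transcription factor, 13 genes of mitosis and 4 inhibitors. A gene was measured where the array carries a probe set, a group of short probes read together, whose only gene symbol is that gene. That held for 39 of the 40, and the probe set that was brightest on average stood for a gene with several. Of these 39 genes, 33 exceeded log2 5.0, the 40th percentile of the whole table, on 3 or more arrays and were tested among 13788 genes in all. The livers came from 12 male C57BL6J mice, an inbred laboratory strain, and were taken at 30 weeks of age. The 4 groups of 3 mice were penicillin high-fat, control high-fat, penicillin chow and control chow. Penicillin mice drank water with penicillin at 6.7 mg/L and control mice drank water without antibiotic. Every mouse began on chow with 13.5% of its energy as fat. The high-fat groups were moved at 17 weeks to a diet with 45% of energy as fat, and the chow groups stayed on chow. The groups represent 1 strain and males only, and cage, litter and scan batch were not used here.

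Before a cell copies its DNA, the licensing factors CDC6 and CDT1 load the MCM2-7 helicase onto replication origins. Cyclin D with CDK4 or CDK6, and then cyclin E with CDK2, drive the cell out of G1 by inactivating the retinoblastoma protein and so releasing E2F. Cyclins A and B with CDK1 carry the cell into mitosis, and inhibitors such as p21, the product of Cdkn1a, stop the cyclin-dependent kinases. Most hepatocytes of an adult liver are quiescent and re-enter the cycle after injury or resection, while resident macrophages and other non-parenchymal cells can divide in place. Liver RNA pools all of these cells. A smaller number of cells of a type and less RNA per cell therefore cannot be told apart in any value below.

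The comparisons the design allows are penicillin against control on each diet, high-fat against chow in each kind of mouse, the interaction of penicillin and diet, and both effects averaged. Values are log2 expression after RMA, the normalization used for these arrays, and a change is the difference of 2 group means of log2 values with the standard error of the fit (SE, n = 3 mice per group). A gene was taken to change where its adjusted p from limma was under 0.05. Array medians lay between 5.52 and 5.59, arrays of 1 group correlated at 0.985 to 0.995 over all genes, and the median SD within a group was 0.13. The mean signal of the 18S ribosomal control probe sets was low on penicillin high-fat 2, penicillin chow 2 and penicillin chow 3, at 11.8 each, against 12.7 to 13.9 on the other 9 arrays. Penicillin chow 1 stood apart in acute phase genes, with a mean deviation of 1.28 against -0.52 to 0.32 elsewhere. Penicillin high-fat 1 had the lowest score of circadian clock genes, at -1.55.

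Low-dose penicillin changed none of the 33 tested genes on either diet after adjustment over all genes. High-fat diet changed 4 of them in penicillin mice, all upward, and 1 in control mice, downward. The 4 were Mki67, Cdkn1a, Ccnb2 and Mcm6, and the 1 was Cdk6. Averaged over both kinds of mouse, the diet changed 5, with Cdkn1a, Mki67 and Pcna higher and Cdk6 and Cdt1 lower. The interaction passed for 0 of the 33, so a difference between penicillin and control mice in their response to diet was not shown for any of them.

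These counts have to be read against all genes tested. For penicillin on chow the 0 of 33 stands beside 0.00725% of all genes, and 1 of the 33 had an unadjusted p under 0.05, beside 7.62% of all genes. For penicillin on high-fat diet it stands beside 0.341%, with 8 of the 33 under an unadjusted p of 0.05, all higher, where 6.27% of all genes were higher at that level. High-fat diet in control mice changed 1 of 33 genes, or 3.03%, beside 0.899% of all genes in either direction and 0.247% of them downward. In penicillin mice it raised 4 of 33, or 12.1%, beside 6.43% of all genes raised and 8.32% changed in either direction. Of these 4, Mki67 passed the filter only through high-fat arrays and had to differ, so the share supports nothing about the list. The 5 of 33 genes changed by diet on average, or 15.2%, lie near the 14.5% of all genes changed (9.63% higher and 4.85% lower), so that share says nothing particular about the cell cycle. The interaction passed for 0.0435% of all genes and penicillin averaged over diets for 0.145%. In each of these comparisons 6 of the 33 had an unadjusted p under 0.05, all positive, beside 4.12% of all genes positive at that level for the interaction and 6.15% for penicillin on average. Both comparisons contain the difference between penicillin and control high-fat livers. Their counts therefore rest in part on the same arrays as the 8 of 33 and do not repeat that result independently.

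**Figure D1:**
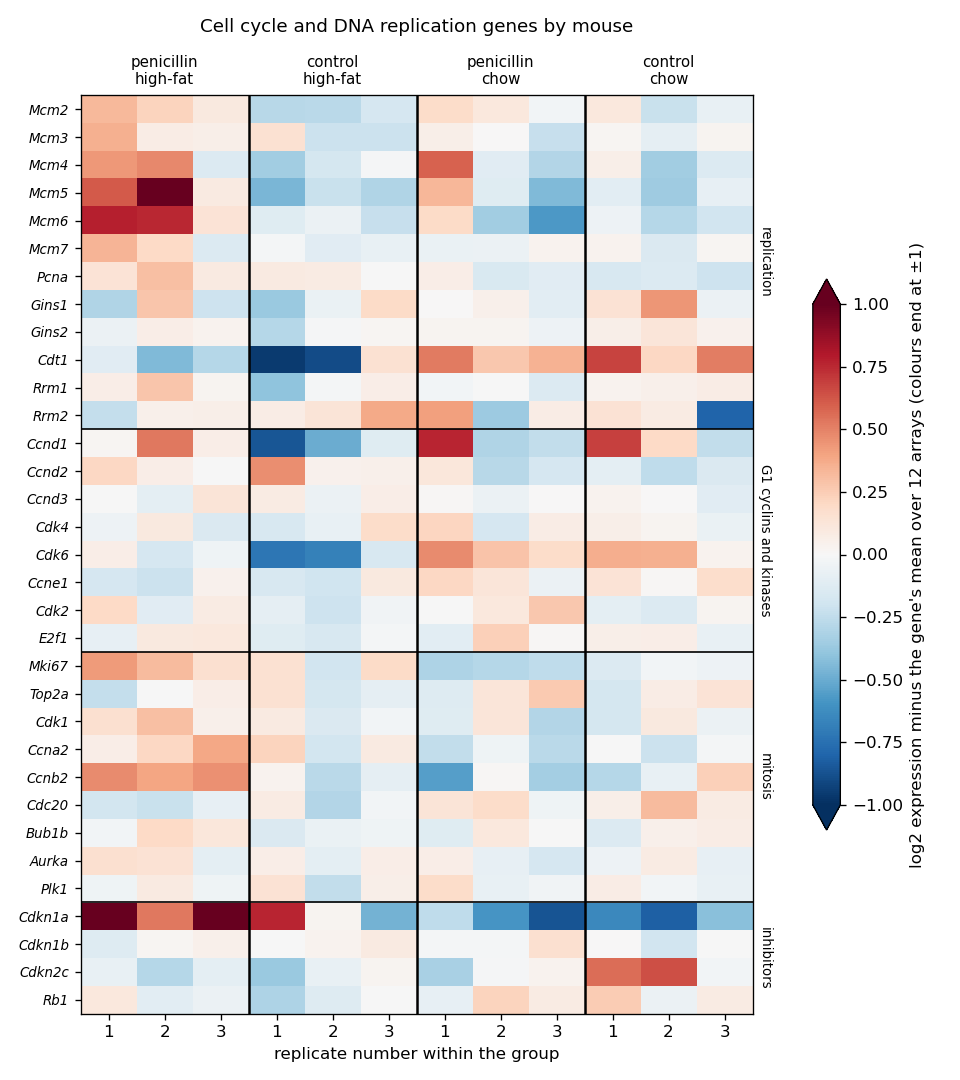
Log2 expression of the 33 tested genes (rows, by role) on the 12 arrays (columns, by group and replicate number), drawn as the difference from each gene's mean over the 12 arrays, with colours ending at 1 log2 unit. Red in the rows of the MCM genes is concentrated on penicillin high-fat 1 and 2, and the row of Cdt1 is red on all 6 chow arrays and faintly on control high-fat 3.

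Some genes separated the groups completely without passing the test. With penicillin on high-fat diet all 3 penicillin livers lay above all 3 control livers for 7 of the 33 genes, which were Mcm2, Mcm5, Mcm6, Pcna, Ccnd1, Ccnb2 and Bub1b, beside 9.5% of all genes. Rrm2 alone separated downward, beside 7.85%. On chow 0 genes separated upward with penicillin, beside 4.79%, and 3 downward, Gins2, Rrm1 and Mki67, beside 7.04%. High-fat diet in penicillin mice separated 6 genes upward (Pcna, Rrm1, Mki67, Ccna2, Ccnb2 and Cdkn1a), beside 15.6% of all genes, and 3 downward (Cdt1, Cdk6 and Cdc20), beside 12.3%. In control mice it separated Pcna and Ccnd2 upward, beside 12.4%, and Gins2, Cdt1 and Cdk6 downward, beside 10.4%. A second probe set of Gins2, above the filter on all 12 arrays, did not share its downward sign. It gave 0.01 with penicillin on chow, against -0.07 for the brightest, and 0.06 with diet in control mice, against -0.16. The shares in the diet comparisons lie near those of all genes.

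The signs of the changes add a description. With penicillin on high-fat diet, 24 of the 33 changes were positive and their median was 0.17, where 49.8% of all genes were positive with a median of -0.00. Of the 12 replication genes tested 11 were positive, with a median of 0.25, and of the 9 mitosis genes 7, with a median of 0.18. Stellate cell and fibroblast markers leaned the same way, with 9 of 11 positive, a median of 0.28, 4 with an unadjusted p under 0.05 and 0 passing limma's test after adjustment. Their mean level was 7.89 to 8.25 in penicillin high-fat livers and 7.76 to 8.0 in control high-fat, and their part in the result was not tested. Cholangiocyte and erythroid markers were positive for 3 of 4 each, with medians of 0.05 and 0.04. Other marker lists leaned the other way. Negative were 14 of 15 macrophage and Kupffer cell markers (median -0.15), 10 of 13 endothelial (-0.06) and 8 of 11 hepatocyte markers (-0.06). So were 6 of 10 T, NK and B cell markers (-0.04) and 3 of 4 neutrophil markers (-0.08). The 8 genes of G1 split evenly, 4 positive, with a median of 0.06, as did the 4 inhibitors, 2 positive, with a median of 0.06. On chow the penicillin changes were 16 positive and 17 negative with a median of -0.00, beside 47.8% positive among all genes. The penicillin comparisons on the 2 diets use different mice. The diet comparison in penicillin mice shares the penicillin high-fat arrays with the penicillin comparison on that diet, and its 33 changes had 19 positive and a median of 0.10. In control mice 11 of the 33 diet changes were positive and the median was -0.05. Single arrays weigh on these signs. Control high-fat 1 was the lowest of all arrays for 12 of the 33 genes, and penicillin high-fat 1 the highest for 8.

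**Figure D2:**
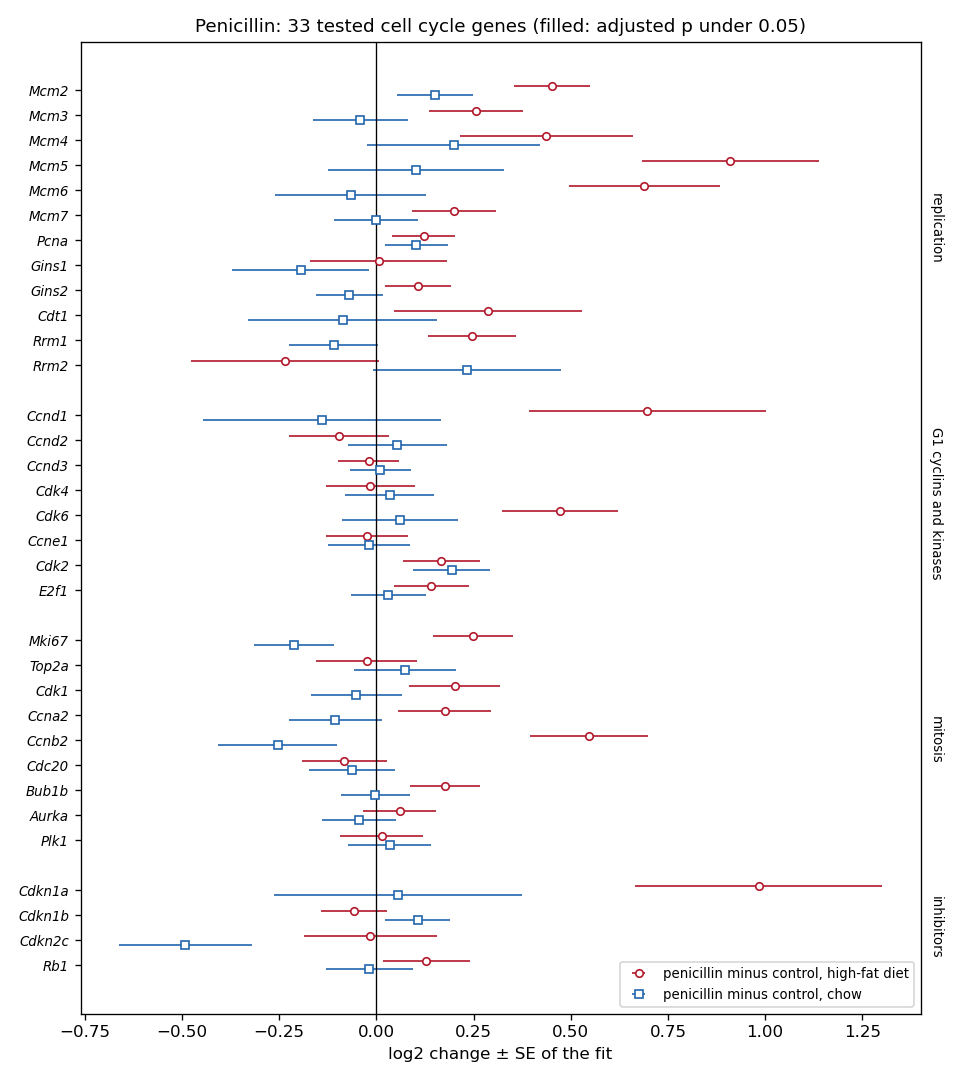
Change with penicillin for each of the 33 tested genes, as log2 penicillin minus control with the SE of the fit, on high-fat diet (red circles) and on chow (blue squares), n = 3 mice per group. No marker is filled, since no adjusted p was under 0.05, and the red circles of Mcm5, Mcm6, Ccnd1 and Cdkn1a lie farthest to the right.

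Among the replication genes, Mcm2 to Mcm7 encode the 6 subunits of the helicase that unwinds DNA at the fork. Promoter sequence is shown for 3 of them and for the 2 mitosis genes that high-fat diet raised in penicillin mice, Ccnb2 and Mki67, since these are among the members with the smallest p for penicillin on high-fat diet or in the diet comparison. The sequences begin 170 bases before the start that RefSeq annotates on GRCm38.p6 and run to the base before the gene, which for Mcm5 and Mki67 leaves 129 and 99 bases, since RefSeq's full extent of those genes reaches further upstream. They are read 5′ to 3′ on the gene's own strand and lie at chr6:88898781-88898950 (minus strand) for Mcm2, chr8:75109339-75109467 (plus) for Mcm5, chr1:128359706-128359875 (minus) for Mcm6, chr9:70421555-70421724 (minus) for Ccnb2 and chr7:135716451-135716549 (minus) for Mki67. Capitals mark 3 motifs on either strand. The first is the E2F site, searched as TTTCCCGC, TTTCGCGC, TTTGCCGC and TTTGGCGC, the second is the cell cycle homology region TTTGAA, and the third is the CCAAT box.
Mcm2: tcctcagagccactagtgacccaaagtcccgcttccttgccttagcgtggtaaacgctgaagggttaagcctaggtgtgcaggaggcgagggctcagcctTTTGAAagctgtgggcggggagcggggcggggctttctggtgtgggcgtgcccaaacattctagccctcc
Mcm5: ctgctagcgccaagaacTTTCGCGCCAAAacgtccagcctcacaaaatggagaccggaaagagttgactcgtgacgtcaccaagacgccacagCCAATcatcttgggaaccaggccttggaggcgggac
Mcm6: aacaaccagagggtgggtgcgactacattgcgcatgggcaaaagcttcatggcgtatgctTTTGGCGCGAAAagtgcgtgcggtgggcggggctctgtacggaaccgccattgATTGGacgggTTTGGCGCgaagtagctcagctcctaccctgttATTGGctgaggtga
Ccnb2: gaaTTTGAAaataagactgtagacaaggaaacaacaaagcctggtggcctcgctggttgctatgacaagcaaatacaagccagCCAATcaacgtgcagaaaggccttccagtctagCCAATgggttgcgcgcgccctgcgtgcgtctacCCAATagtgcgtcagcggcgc
Mki67: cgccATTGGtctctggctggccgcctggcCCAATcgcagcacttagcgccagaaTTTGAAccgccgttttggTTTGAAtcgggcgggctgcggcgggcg
Mcm6 holds 3 E2F matches, which begin 110, 106 and 47 bases before the start, and the first 2 of them overlap on opposite strands. Mcm5 holds an overlapping pair that begins 153 and 149 bases before the start. Ccnb2 carries 3 CCAAT boxes with first bases at 87, 54 and 21 bases before the start, and Mki67 carries TTTGAA at 116 and 98 bases before it. The search covered the whole window of 250 bases before to 50 after the start, which 31 of the 40 genes have. An E2F match was found in 6 of 11 replication genes (Cdc6, Cdt1, Mcm3, Mcm5, Mcm6 and Mcm7), against 2.6% of 27025 genes. TTTGAA was found in 8 of 11 mitosis genes (Aurka, Bub1b, Ccnb2, Cdc20, Cdk1, Mki67, Plk1 and Top2a), against 20.2% of all genes, and CCAAT in 10 of those 11, against 41.1%. A match describes letters in the window and not a bound factor.

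Mcm2 (GRCm38.p6 chromosome 6, 88883474 to 88898780) had log2 values of 7.71, 7.61 and 7.48 in penicillin high-fat livers, 7.11, 7.12 and 7.22 in control high-fat, 7.57, 7.49 and 7.36 in penicillin chow and 7.49, 7.16 and 7.31 in control chow. Control high-fat livers were low, and none reached the lowest penicillin high-fat liver. The change with penicillin on high-fat diet was 0.45 ± 0.10 (adjusted p = 0.0842), the smallest p of the 33 genes in that comparison but short of the threshold. On chow the 2 groups overlapped, with a change of 0.15 ± 0.10 (adjusted p = 0.769). Averaged over diets it was 0.30 ± 0.07 (adjusted p = 0.137). The second probe set of Mcm2 gave 0.83 for penicillin on high-fat diet.

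Mcm5 (chromosome 8, 75109468 to 75128439) had values of 7.15, 7.58 and 6.62 in penicillin high-fat livers, 6.07, 6.31 and 6.23 in control high-fat, 6.86, 6.41 and 6.09 in penicillin chow and 6.43, 6.18 and 6.45 in control chow. All 3 penicillin high-fat livers lay above the 3 control high-fat livers, although penicillin high-fat 3 was closer to them than to penicillin high-fat 2. On high-fat diet the change with penicillin was 0.91 ± 0.23 (adjusted p = 0.142), on chow 0.10 ± 0.23 (adjusted p = 0.952), and averaged over diets 0.51 ± 0.16 (adjusted p = 0.247). The other probe sets of Mcm5, which are dim, gave 0.23 and 0.14 on high-fat diet.

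Mcm6 (chromosome 1, 128331575 to 128359705) was the helicase subunit raised by high-fat diet in penicillin mice. Its values were 7.84, 7.82 and 7.20 in penicillin high-fat livers, 6.94, 7.01 and 6.84 in control high-fat, 7.26, 6.72 and 6.50 in penicillin chow and 7.01, 6.78 and 6.88 in control chow. Penicillin high-fat 1 and 2 stood above every other array, while penicillin high-fat 3 lay just under penicillin chow 1, so the 2 groups overlap. The change with diet in penicillin mice was 0.80 ± 0.20, or 1.74-fold (adjusted p = 0.0276), beside 0.04 ± 0.20 in control mice (adjusted p = 0.955), with an interaction of 0.76 ± 0.28 (adjusted p = 0.724). Between penicillin and control mice on high-fat diet it was 0.69 ± 0.20 (adjusted p = 0.212). This diet call rests on few arrays. It was lost without penicillin chow 2 (adjusted p = 0.0787) or 3 (0.0954), or without penicillin high-fat 1 (0.112) or 2 (0.0851). Without the 3 arrays of low 18S signal, which are 3 of these 4 mice, the change was 0.26 (adjusted p = 0.530). The call was also lost with 18S signal as a covariate, at 0.74 (adjusted p = 0.0631), with the clock score as a covariate, at 0.70 (adjusted p = 0.120), and when only the 6 penicillin arrays were fitted (adjusted p = 0.118). A second probe set, above the filter on only 5 arrays, gave 1.10 for diet in penicillin mice. Its mean was 5.94 in penicillin high-fat livers. In control high-fat, penicillin chow and control chow livers its means were 4.64, 4.84 and 4.86, all below the filter. Another, dim one gave 0.02.

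The other subunits did not pass in any comparison. With penicillin on high-fat diet the difference was 0.26 ± 0.12 for Mcm3, 0.44 ± 0.22 for Mcm4 and 0.20 ± 0.11 for Mcm7, and none of the 3 separated the groups. The mean deviation of the 6 subunits from their 12-array means was 0.47, 0.46 and 0.02 in penicillin high-fat livers, -0.18, -0.17 and -0.17 in control high-fat, 0.21, -0.09 and -0.26 in penicillin chow and 0.01, -0.24 and -0.07 in control chow. Penicillin high-fat 1 and 2 were thus high for the helicase as a whole, and penicillin high-fat 3 lay within the range of the chow livers.

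**Figure D3:**
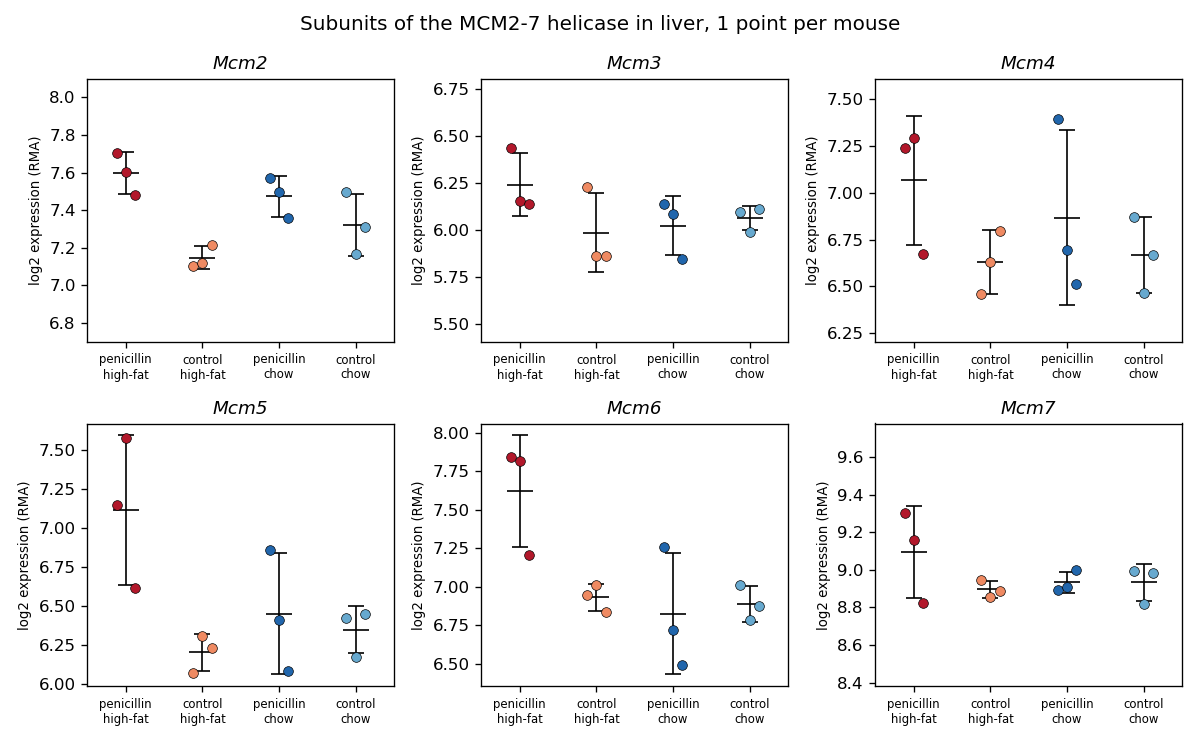
Log2 expression of the 6 helicase subunits in single livers, 1 point per mouse, with the group mean and SD (n = 3), each gene on its own axis that does not begin at 0. Penicillin high-fat 1 and 2 lie at the top for Mcm5, Mcm6 and Mcm7, and the control high-fat livers are below all penicillin high-fat livers for Mcm2, Mcm5 and Mcm6.

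Pcna (chromosome 2, 132249286 to 132253180), the clamp that holds DNA polymerase on its template, rose with high-fat diet averaged over treatments. Its values were 10.39, 10.55 and 10.34 in penicillin high-fat livers, 10.34, 10.33 and 10.25 in control high-fat, 10.32, 10.09 and 10.14 in penicillin chow and 10.09, 10.11 and 10.05 in control chow. High-fat livers were above the chow livers of the same kind in both comparisons, with no overlap, although over all 12 mice penicillin chow 1 exceeded control high-fat 3. The averaged change was 0.23 ± 0.06, or 1.18-fold (adjusted p = 0.0196), with 0.24 ± 0.08 in penicillin mice (adjusted p = 0.0876) and 0.22 ± 0.08 in control mice (adjusted p = 0.219). Without the 3 arrays of low 18S signal it was 0.14 (adjusted p = 0.163).

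Cdt1 (chromosome 8, 122568015 to 122573130), the licensing factor that loads the helicase, fell with high-fat diet averaged over treatments. It had values of 7.07, 6.73 and 6.89 in penicillin high-fat livers, 6.22, 6.28 and 7.33 in control high-fat, 7.70, 7.44 and 7.53 in penicillin chow and 7.85, 7.38 and 7.69 in control chow. Every one of the 6 high-fat livers lay below every one of the 6 chow livers, a separation in this direction that 2.14% of all genes showed. Cdt1 was the only 1 of the 33 tested genes to separate the diets over all 12 mice. The averaged change was -0.85 ± 0.17, 1.80-fold lower (adjusted p = 0.00827). In control mice alone it was -1.03 ± 0.24 (adjusted p = 0.0724) and in penicillin mice -0.66 ± 0.24 (adjusted p = 0.12). Control high-fat 3 was the highest of its group, and without it the change in control mice was -1.39 (adjusted p = 0.00234). The other 11 fits that left out 1 array did not pass in control mice, with adjusted p up to 0.258. A second probe set gave -0.66 on average and another, dim one 0.12.

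The remaining replication genes did not pass. Gins1 and Gins2 encode parts of the GINS complex, which joins the helicase at the fork, and Rrm1 and Rrm2 encode the subunits of ribonucleotide reductase, which makes deoxynucleotides. Diet changes in penicillin mice were -0.06 ± 0.18 for Gins1, 0.01 ± 0.09 for Gins2, 0.18 ± 0.11 for Rrm1 and -0.08 ± 0.24 for Rrm2. Rrm2 differed with penicillin on high-fat diet by -0.24 ± 0.24, the lowest of the replication genes. Cdc6 and Tyms, the thymidylate synthase gene, lay below the filter on all 12 arrays, between 3.27 and 3.85 and between 3.64 and 3.91.

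Among the G1 genes, Cdk6 (chromosome 5, 3341004 to 3531008), a partner of the D cyclins, fell with high-fat diet. Its values were 8.53, 8.30 and 8.43 in penicillin high-fat livers, 7.74, 7.79 and 8.31 in control high-fat, 8.94, 8.75 and 8.65 in penicillin chow and 8.83, 8.82 and 8.50 in control chow. Control high-fat 1 and 2 were the lowest of all arrays, and the high-fat and chow livers did not overlap in control mice or in penicillin mice. The change was -0.77 ± 0.15 in control mice, 1.70-fold lower (adjusted p = 0.0425), -0.36 ± 0.15 in penicillin mice (adjusted p = 0.163) and -0.56 ± 0.11 on average, 1.48-fold lower (adjusted p = 0.00549). The averaged call was kept in all 12 fits that left out 1 array, with adjusted p from 0.00127 to 0.0174. The call in control mice lay close to the threshold and was kept in 3 of those 12 fits. It was lost without control chow 1 or 2, control high-fat 1 or 2, penicillin chow 2 or 3 or any penicillin high-fat mouse, with adjusted p up to 0.160. Its other probe sets gave -0.73 and -0.44 in control mice.

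Cdk2 (chromosome 10, 128697938 to 128705051), the partner of cyclin E, was named for its rank among the penicillin comparisons. It had values of 7.93, 7.62 and 7.82 in penicillin high-fat livers, 7.64, 7.53 and 7.70 in control high-fat, 7.73, 7.84 and 8.0 in penicillin chow and 7.64, 7.60 and 7.76 in control chow. Penicillin livers had the higher means on both diets, and the groups overlapped on both. The averaged change was 0.18 ± 0.07 (adjusted p = 0.34), and on chow it was 0.19 ± 0.10 (adjusted p = 0.68).

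Ccnd1, the gene of cyclin D1, had values of 8.72, 9.23 and 8.77 in penicillin high-fat livers, 7.85, 8.20 and 8.58 in control high-fat, 9.47, 8.40 and 8.46 in penicillin chow and 9.39, 8.90 and 8.46 in control chow. Control high-fat livers did not overlap penicillin high-fat livers, but the chow groups spread widely and overlapped. The change with penicillin on high-fat diet was 0.70 ± 0.31 (adjusted p = 0.464), and with high-fat diet in control mice -0.70 ± 0.31 (adjusted p = 0.304). The other probe sets of Ccnd1 gave smaller changes, 0.39 and 0.36 in the first comparison and -0.37 and -0.39 in the second. Ccnd2 and Ccnd3, the genes of the other D cyclins, differed by 0.28 ± 0.09 (adjusted p = 0.0609) and 0.04 ± 0.06 (adjusted p = 0.675) with diet on average. Cdk4, which partners the D cyclins too, Ccne1, the gene of cyclin E1, and E2f1, the S phase transcription factor, had averaged diet changes of -0.05 ± 0.08, -0.20 ± 0.07 and -0.06 ± 0.07, and none passed. Ccne2 lay below the filter on all arrays, between 3.37 and 4.48.

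Of the 13 mitosis genes, Ccnb1, the gene of cyclin B1, was not analysed here. Bub1 and Aurkb, both mitotic kinases, and Birc5, the gene of survivin, lay below the filter on all 12 arrays, Bub1 between 3.07 and 3.66 and Aurkb between 3.40 and 4.03. Birc5 had values of 4.55, 4.78 and 4.59 in penicillin high-fat livers, 4.55, 4.36 and 4.71 in control high-fat, 4.09, 4.14 and 4.13 in penicillin chow and 3.88, 4.02 and 3.83 in control chow. All 6 high-fat livers were higher than the 6 chow livers for Birc5, as for 4.35% of all genes tested. The filter kept Birc5 out of the test, and its values were added after they had been seen.

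Mki67 (chromosome 7, 135689784 to 135716450), the gene of the proliferation marker Ki-67, rose with high-fat diet in penicillin mice and on average. It had values of 5.30, 5.19 and 5.04 in penicillin high-fat livers, 5.03, 4.69 and 5.07 in control high-fat, 4.57, 4.59 and 4.63 in penicillin chow and 4.75, 4.85 and 4.83 in control chow. Only 5 arrays were above the filter, all of them high-fat, so the gene was tested because it was high there and had to differ. The penicillin groups did not overlap between diets. In control mice they did, since control high-fat 2 was below all 3 chow livers. The change was 0.58 ± 0.10 in penicillin mice, 1.5-fold (adjusted p = 0.0064), 0.12 ± 0.10 in control mice (adjusted p = 0.625) and 0.35 ± 0.07 on average (adjusted p = 0.00906). With penicillin on chow it was -0.21 ± 0.10 (adjusted p = 0.667) with no overlap, and the interaction was 0.46 ± 0.15 (adjusted p = 0.598). Both diet calls were kept in all 12 fits that left out 1 array. Without the 3 arrays of low 18S signal the change in penicillin mice was 0.60 (adjusted p = 0.0696), and without penicillin chow 1 and penicillin high-fat 1 it was 0.51 (adjusted p = 0.0523).

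Ccnb2 (chromosome 9, 70407689 to 70421554), the gene of cyclin B2, was higher on all 3 penicillin high-fat arrays than on any other array. Its values were 5.83, 5.75 and 5.81 in penicillin high-fat livers, 5.39, 5.09 and 5.27 in control high-fat, 4.80, 5.37 and 5.02 in penicillin chow and 5.07, 5.28 and 5.60 in control chow. The penicillin high-fat livers lay close together, a tight group beside the spread on chow. Ccnb2 rose by 0.73 ± 0.15 with diet in penicillin mice, 1.66-fold (adjusted p = 0.0141), while its change was -0.07 ± 0.15 in control mice (adjusted p = 0.889). With penicillin on high-fat diet the change was 0.55 ± 0.15 (adjusted p = 0.202), and the interaction was 0.80 ± 0.22 (adjusted p = 0.449). The diet call was lost without penicillin high-fat 1 (adjusted p = 0.0540), with the clock score as a covariate (0.0732) and without penicillin chow 1 and penicillin high-fat 1 together (0.0959).

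The other mitosis genes did not pass. Ccna2, the gene of cyclin A2, came closest, with 0.41 ± 0.12 for diet in penicillin mice (adjusted p = 0.0586) and 0.26 ± 0.08 on average (adjusted p = 0.057). A second probe set of Ccna2, above the filter on 4 arrays, gave 0.01 on average and 0.20 for diet in penicillin mice. Cdk1, the mitotic kinase, had 0.27 ± 0.12 (adjusted p = 0.182) and Cdc20, an activator of the anaphase-promoting complex, -0.25 ± 0.11 (adjusted p = 0.184). Top2a encodes topoisomerase II alpha, Bub1b a spindle checkpoint kinase, and Aurka and Plk1 mitotic kinases. Their diet changes in penicillin mice were -0.14 ± 0.13, 0.10 ± 0.09, 0.13 ± 0.09 and -0.02 ± 0.11. Another probe set of Top2a, above the filter on 3 arrays, gave 0.59 in that comparison, and a probe set below the filter gave -0.04. The other probe sets of Cdc20 gave 0.07 and 0.32, against -0.25 for the brightest. The direction of change for Top2a and Cdc20 therefore depended on the probe set. By the brightest probe set, 6 of the 9 tested mitosis genes had a diet change above 0 in penicillin mice, and 2 of them, Mki67 and Ccnb2, passed.

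**Figure D4:**
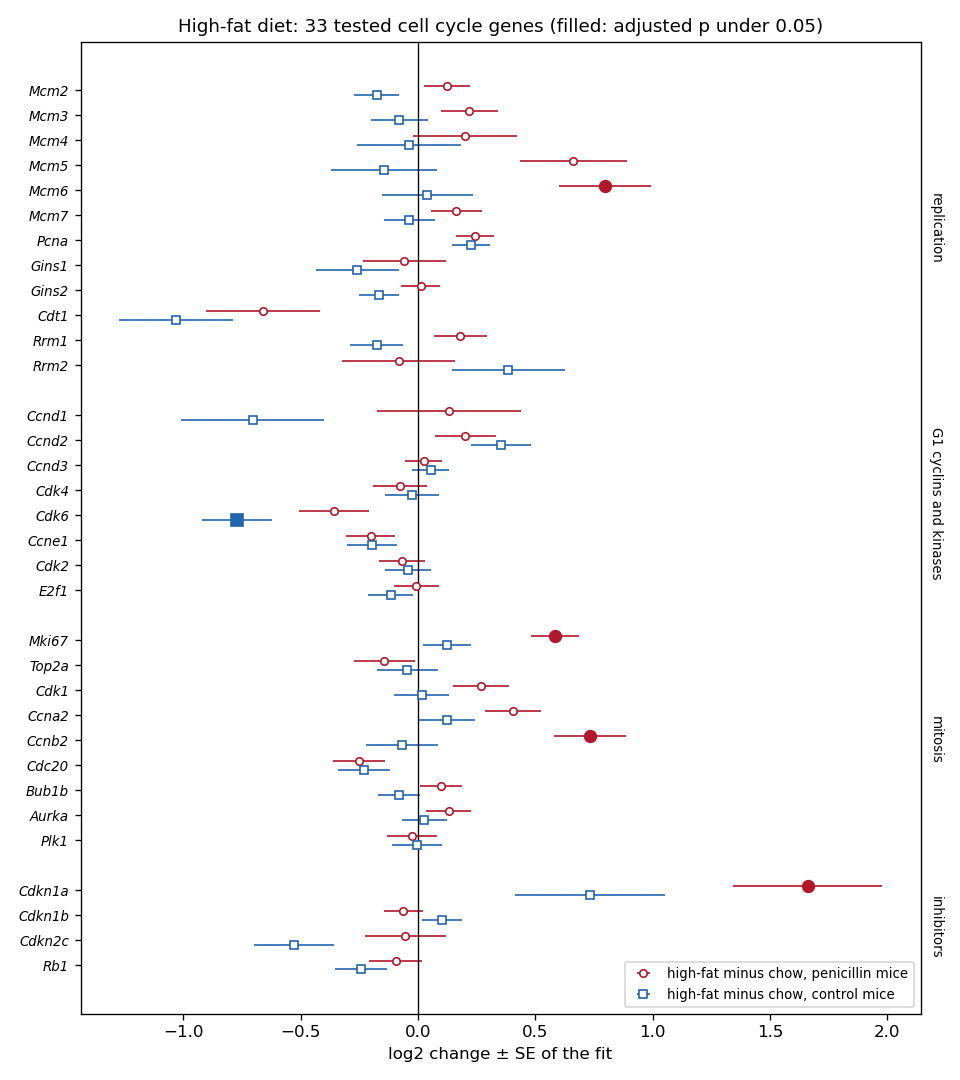
Change with high-fat diet for each of the 33 tested genes, as log2 high-fat minus chow with the SE of the fit, in penicillin mice (red circles) and in control mice (blue squares), n = 3 mice per group. Filled markers have an adjusted p under 0.05, which are Mcm6, Mki67, Ccnb2 and Cdkn1a in penicillin mice and Cdk6 in control mice.

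Macrophages can divide in the liver, and their markers moved with diet too. Of 15 macrophage and Kupffer cell markers, 10 rose with high-fat diet in penicillin mice (median change 0.80), 0 passed in control mice (median 0.53, all 15 positive) and 12 rose on average (median 0.68). Their mean level was 8.90 to 9.49 in penicillin high-fat livers, 9.31 to 9.47 in control high-fat, 8.13 to 8.87 in penicillin chow and 8.80 to 8.93 in control chow. Endothelial markers rose for 7 of 13 and stellate cell and fibroblast markers for 6 of 11 with diet on average, while 0 of 4 tested neutrophil markers passed. Of 11 hepatocyte markers 0 rose and 1 fell, or 9.09%, with diet on average. Of all genes the diet changed 8.32% in penicillin mice, 0.899% in control mice and 14.5% on average. The part of the cells with these markers in the changes of Mki67, Ccnb2, Pcna and Mcm6 was not tested.

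Among the inhibitors, Cdkn1a (chromosome 17, 29090979 to 29100722) showed the largest change of the 33 genes in any comparison, upward with high-fat diet in penicillin mice. Its product p21 blocks cyclin-dependent kinases and binds PCNA. Its values were 9.13, 7.97 and 8.50 in penicillin high-fat livers, 8.21, 7.47 and 6.98 in control high-fat, 7.19, 6.85 and 6.58 in penicillin chow and 6.80, 6.63 and 7.03 in control chow. High-fat and chow livers did not overlap in penicillin mice, and in control mice control high-fat 3 lay within the chow range. The change was 1.66 ± 0.32 in penicillin mice, 3.16-fold (adjusted p = 0.00931), 0.73 ± 0.32 in control mice (adjusted p = 0.305) and 1.20 ± 0.23 on average, 2.29-fold (adjusted p = 0.0057). With penicillin on high-fat diet it was 0.98 ± 0.32 (adjusted p = 0.298), with overlapping groups, and the interaction was 0.93 ± 0.45 (adjusted p = 0.835). A second probe set gave 2.49 for diet in penicillin mice, 1.34 in control mice and 1.91 on average.

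Hepatic Cdkn1a varies with the circadian clock, and penicillin high-fat 1, its highest array, had the lowest clock score. That score was -1.55, 0.11 and -0.37 in penicillin high-fat livers, -0.67, 0.16 and 0.70 in control high-fat, 0.07, 0.18 and 0.53 in penicillin chow and 0.62, 0.66 and -0.43 in control chow. Its mean was -0.61 in penicillin high-fat livers, 0.06 in control high-fat, 0.26 in penicillin chow and 0.29 in control chow. Score and group therefore go together in part, and the part of the clock in the change of Cdkn1a was not tested. With the score as a covariate the change in penicillin mice was 1.08 (adjusted p = 0.00662) and on average 0.83 (adjusted p = 0.00231). Without penicillin high-fat 1 and penicillin chow 1 the first was 1.52 (adjusted p = 0.030), and without the 3 arrays of low 18S signal it was 1.63 (adjusted p = 0.0568).

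Cdkn2c (chromosome 4, 109660876 to 109666756), the gene of the CDK4 and CDK6 inhibitor p18, had values of 8.05, 7.83 and 8.02 in penicillin high-fat livers, 7.75, 8.05 and 8.15 in control high-fat, 7.80, 8.11 and 8.15 in penicillin chow and 8.68, 8.77 and 8.09 in control chow. Control chow 1 and 2 were the highest arrays, and control chow 3 lay among the other groups. The change with penicillin on chow was -0.49 ± 0.17 (adjusted p = 0.588) and with high-fat diet in control mice -0.53 ± 0.17 (adjusted p = 0.165), or -0.74 (adjusted p = 0.0447) without control chow 3. In the other 11 fits that left out 1 array the diet change in control mice did not pass, with adjusted p up to 0.46. Cdkn1b, the gene of the inhibitor p27, and Rb1, the retinoblastoma gene, had averaged diet changes of 0.02 ± 0.06 and -0.17 ± 0.08, and neither passed in any comparison.

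**Figure D5:**
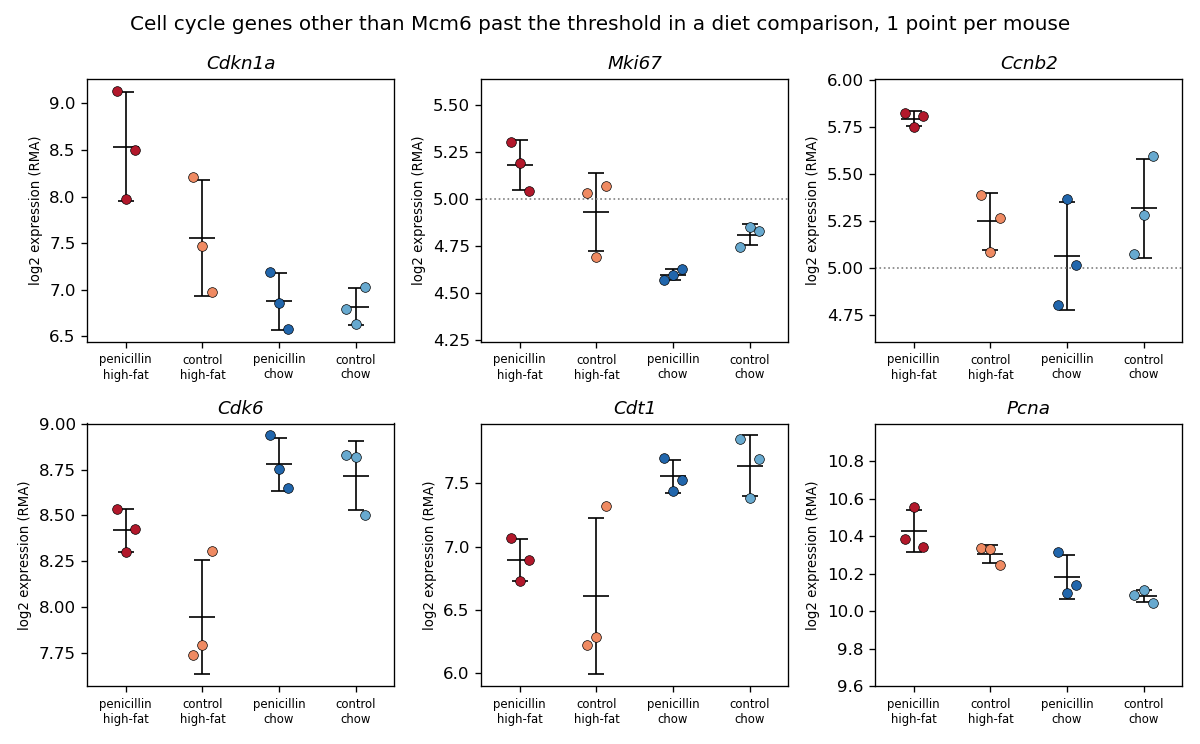
Log2 expression in single livers, 1 point per mouse, of the 6 genes other than Mcm6 that passed the threshold in a diet comparison, with the group mean and SD (n = 3) and a dotted line at the filter of log2 5.0. Cdkn1a, Mki67, Ccnb2 and Pcna have their highest group mean in penicillin high-fat livers. Cdt1 is lower in all 6 high-fat livers, and Mki67 lies at or near the dotted line.

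Of 111 other genes of the cell cycle, listed with earlier results of these data known, 91 were tested: 37 of replication, 26 of mitosis and 28 regulators. High-fat diet in penicillin mice raised 14 of the 91 and lowered 1, which was Fen1, the flap endonuclease gene, or 16.5% beside 8.32% of all genes. Besides the 6 described below, the genes raised were Rbl1, a relative of the retinoblastoma gene, Ccng2, Cdkn1c, the gene of the inhibitor p57, Lig1, the ligase of Okazaki fragments, Rfc2, of the clamp loader, Dut, the dUTPase gene, Ube2c, of the anaphase-promoting complex pathway, and Stmn1, a microtubule regulator. Rbl1 was above the filter on 5 arrays, all of them high-fat, so it was tested because it was high there and had to differ. The 15 calls became 5 without penicillin high-fat 1, 8 without penicillin high-fat 2, 9 without penicillin chow 2, 6 without penicillin high-fat 1 and penicillin chow 1, and 9 without the 3 arrays of low 18S signal. In control mice the diet changed 0 of the 91, beside 0.899% of all genes. Averaged over treatments it raised 9 and lowered 3, or 13.2% beside 14.5% of all genes, a share near the background. Penicillin changed 0 of the 91 on chow, beside 0.00725% of all genes. On high-fat diet it changed 1, Mad2l1, or 1.1% beside 0.341%. The interaction passed for 0, beside 0.0435%.

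Mad2l1 encodes MAD2, a protein of the spindle checkpoint. Its values were 7.47, 7.48 and 7.31 in penicillin high-fat livers, 6.90, 6.90 and 7.03 in control high-fat, 6.63, 6.85 and 6.68 in penicillin chow and 6.92, 6.79 and 6.85 in control chow. All 3 penicillin high-fat livers stood above the other 9. Mad2l1 was 0.48 ± 0.08 higher with penicillin on high-fat diet (adjusted p = 0.032) and 0.70 ± 0.08 higher with diet in penicillin mice (adjusted p = 0.000726), while the interaction was 0.61 ± 0.12 (adjusted p = 0.163). The diet call was kept in all 12 fits that left out 1 array, with adjusted p up to 0.00546. The penicillin call was kept in 6 of the 12, and was lost without any 1 of the control high-fat mice, penicillin high-fat 1 or 2 or penicillin chow 3, with adjusted p up to 0.163. It was also lost when only the 6 high-fat arrays were fitted (adjusted p = 0.0885), with the replicate number as a block (0.0837), with the clock score as a covariate (0.0853), and without the 3 arrays of low 18S signal (0.0558) or the pair penicillin chow 1 and penicillin high-fat 1 (0.114).

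Smc2, a subunit of condensin, which compacts chromosomes, had values of 6.75, 6.85 and 6.53 in penicillin high-fat livers, 6.23, 6.17 and 6.27 in control high-fat, 5.93, 5.99 and 5.91 in penicillin chow and 6.27, 5.81 and 5.82 in control chow. It rose by 0.76 ± 0.12 with diet in penicillin mice (adjusted p = 0.00361) and by 0.51 ± 0.08 on average (adjusted p = 0.00293), and penicillin high-fat livers were again above all others. Topbp1, which acts in replication initiation and checkpoint signalling, had 7.70, 7.69 and 7.68 in penicillin high-fat livers, 7.22, 7.13 and 7.15 in control high-fat, 7.09, 7.04 and 7.13 in penicillin chow and 7.33, 6.73 and 6.98 in control chow. Penicillin high-fat livers were nearly identical and above the rest, and the change with diet in penicillin mice was 0.60 ± 0.12 (adjusted p = 0.0103), or 0.37 with the mean of all its probe sets (adjusted p = 0.0214). Cdca3, a gene of mitotic entry, had 5.88, 6.15 and 5.94 in penicillin high-fat livers, 5.74, 5.58 and 5.80 in control high-fat, 5.47, 5.49 and 5.67 in penicillin chow and 5.81, 5.69 and 5.84 in control chow, with 0.45 ± 0.09 for diet in penicillin mice (adjusted p = 0.0155, or 0.0502 without penicillin chow 2 and 0.0632 with only the 6 penicillin arrays fitted). Without the 3 arrays of low 18S signal the diet calls in penicillin mice were lost for Smc2 (adjusted p = 0.0561), Topbp1 (0.107) and Cdca3 (0.0656). Topbp1 also lost its call without penicillin chow 1 and penicillin high-fat 1 (adjusted p = 0.0590).

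Among the other regulators, Ccng1, the gene of cyclin G1 and a target of p53, had values of 9.87, 9.87 and 10.09 in penicillin high-fat livers, 9.68, 9.49 and 9.58 in control high-fat, 8.93, 9.32 and 9.32 in penicillin chow and 9.34, 9.26 and 9.15 in control chow. Every high-fat liver lay above every chow liver, as for 4.35% of all genes, and the averaged change was 0.54 ± 0.08 (adjusted p = 0.00162). Ccng2, an atypical cyclin linked to cell cycle exit, had 9.86, 9.28 and 9.44 in penicillin high-fat livers, 9.87, 9.17 and 8.97 in control high-fat, 8.50, 8.72 and 8.45 in penicillin chow and 8.40, 8.07 and 8.69 in control chow. Its high-fat livers were likewise all above its chow livers, with an averaged change of 0.96 ± 0.16 (adjusted p = 0.00315). Btg1, an antiproliferative gene, had 11.38, 10.84 and 11.05 in penicillin high-fat livers, 10.92, 10.51 and 10.47 in control high-fat, 10.11, 10.48 and 10.34 in penicillin chow and 9.70, 10.08 and 10.11 in control chow. Btg1 averaged 0.73 ± 0.12 higher with diet (adjusted p = 0.00298), though control high-fat 3 lay just under penicillin chow 2, and in penicillin mice alone 0.78 ± 0.17 (adjusted p = 0.0173, or 0.0727 without penicillin high-fat 1, 0.134 without penicillin chow 1 too and 0.0679 with the clock score as a covariate). Tfdp2, a dimer partner of E2F, had 7.49, 7.33 and 7.55 in penicillin high-fat livers, 7.46, 7.36 and 7.41 in control high-fat, 7.93, 7.64 and 7.74 in penicillin chow and 7.85, 7.65 and 7.72 in control chow, and averaged -0.32 ± 0.07 with diet (adjusted p = 0.0088), or -0.21 with the mean of all its probe sets (adjusted p = 0.0608).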

How the data were processed

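Each liver was hybridised to 1 Affymetrix array. The authors deposited 1 table of log2 values, 45101 probe sets by 12 arrays. The submitters' processing notes name RMA and the affy package, with versions not given. RMA gives all arrays the same intensity distribution, so changes are relative to the bulk of genes, and it compresses the changes of dim genes. Detection calls were not used here.

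Names come from GEO's annotation of the platform: 34945 had 1 symbol, 932 several, 9160 none, and 64 were controls. Of 18193 genes, 13788 passed the filter (above the 40th percentile on at least 3 arrays). Of the 39 measured members, 30 have several probe sets, and the brightest stood for the gene. The fit was limma 3.58.1 in R 4.3.3, with 4 group means on all 12 arrays (8 residual degrees of freedom), 7 contrasts, eBayes, and the Benjamini-Hochberg adjustment over all genes tested. It was checked on simulated data. Since the labels describe biological replicates, p-values reflect the spread between these animals. Arrays give no read depth, and their number limits the precision: the median SE was 0.10 between groups and 0.15 for the interaction.

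Members and lists were chosen with earlier results of these data known. Values on every array are given for members that passed in any comparison and for the 3 with the smallest p in each, and likewise for at most 6 other cell cycle genes that passed per comparison. Values of Birc5 and Ccnd1 were added after they had been seen. The clock score is the mean deviation of clock genes that peak with Per1 and Dbp, minus that of genes that peak with Bmal1. Promoters are from RefSeq on GRCm38.p6, matched by symbol. The alternatives were other filters, probe set rules, normalizations, variance models, array weights, thresholds and covariates, a replicate block, only the arrays compared, and leaving out each array in turn.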

Additional observations from a re-analysis of the deposited data

How the results depend on the processing

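With 3 mice per group and values near the filter for Mki67 and Ccnb2, small changes cannot be resolved. None of the named members changed direction under any alternative run: of 581 values, 546 kept direction and side of the threshold, 28 lost the threshold and 7 gained it. Penicillin on chow and the interaction gave 0 members under every alternative. Penicillin on high-fat diet gave 0, but 1 at an adjusted p under 0.10 (Mcm2), 2 with array weights (Ccnb2 and Mcm2) and 1 with 18S signal as a covariate (Cdkn1a). Penicillin averaged over diets gave 0, but 1 with that covariate (Cdkn1a) and 1 without the low 18S arrays (Mcm5). High-fat diet in control mice gave 1, but 2 at an adjusted p under 0.10, 2 with no filter (Birc5 and Cdk6), 3 with array weights, and 0 with only the arrays compared, with the replicate block or without the low 18S arrays. High-fat diet in penicillin mice gave 4, but 7 at an adjusted p under 0.10, 7 with array weights, 2 with a filter at the 60th percentile, 2 with the clock score as a covariate, 2 without penicillin chow 1 and penicillin high-fat 1, and 1 without the low 18S arrays (Ccnb2). High-fat diet averaged over treatments gave 5, but 11 at an adjusted p under 0.10, 10 with array weights and 2 when a change of at least 1.5-fold was also required (Cdkn1a and Cdt1). Apart from the thresholds and filters, the cause was not tested.

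Leaving out each array in turn gave 0 to 0 members for both within-diet penicillin comparisons, for the interaction and for penicillin on average. It gave 0 to 2 for diet in control mice, 2 to 6 in penicillin mice, where 2 remained without penicillin high-fat 1, and 5 to 7 on average. The fits without the 3 low 18S arrays, which leave 1 penicillin chow array assumed to vary like the others, and without the 2 outlying arrays were chosen with earlier results of these data known, as were all alternatives for the other cell cycle genes. Of those genes, diet in penicillin mice changed 5 to 13 when 1 array was left out and 6 to 16 under the other alternatives, against 15.

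Replicate numbers did not pair the mice. Over 18 pairs of same-numbered arrays the correlation of deviations from the group means was -0.23 to 0.17, above 0.1 in 3, and an array correlated best with its own number in 12 of 36 comparisons with another group. With the number as a replicate block, the count for diet in control mice was 0 in place of 1 (Cdk6, adjusted p = 0.0714), for diet on average 7 in place of 5, and for the other comparisons as before.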
